A study of Mus musculus with 12 samples.

Results

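The globin genes were examined in bone marrow erythroblasts, gated on Ter119 and on high CD71, of mice with a cyclin E knock-in and of wild type littermates. They were chosen by symbol: each probe that the platform annotation names with a symbol starting with Hba- or Hbb- was taken, which gave 7 of 19057 genes, read by 17 of the 45281 probes on the array. Of these probes, 12 belong to adult globins (1 for Hba-a1, 6 for Hbb-bs, 4 for Hbb-bt and 1 for Hbb-b2) and 5 to embryonic globins (1 for Hba-x, 2 for Hbb-bh1 and 2 for Hbb-y). The first group carried the cyclin E substitutions T74A and T393A, which remove sites used by the ubiquitin ligase subunit Fbw7, and the second was wild type. Both were on strain background 129, and the labels used here give no age and no number of animals. The data are 12 Illumina bead arrays of 1 colour, 6 per genotype. Adjacent array numbers were taken as duplicates, which left 3 samples per genotype: the pairs 3 and 4, 5 and 6, and 11 and 12 for the knock-in, and 1 and 2, 7 and 8, and 9 and 10 for wild type. The labels do not say whether each sample is a separate animal. The p-values therefore describe the spread among the samples at hand, and that spread may be technical.

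Hemoglobin is assembled from alpha-type and beta-type globin chains, each of which holds a heme group. The alpha-type genes and the beta-type genes form separate clusters, and within each cluster the genes used early in development lie apart from those used in the adult. Hba-x (zeta), Hbb-y (epsilon y) and Hbb-bh1 (beta h1) are expressed in the primitive red cells of the yolk sac, while Hba-a1 and its near-identical copy Hba-a2, together with the adult beta genes, serve definitive red cells in fetal liver and bone marrow. Inbred mice carry different adult beta haplotypes: Hbb-bs and Hbb-bt are the pair of one, Hbb-b1 and Hbb-b2 the pair of another, and the labels do not say which one these mice carried.

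The promoters of 5 members are shown because the adult and embryonic genes are compared throughout. They come from a RefSeq promoter table (build GRCm38.p6) that held 5 of the 7 member symbols. Each stretch holds the 130 bases before the transcription start, 5′ to 3′ on the gene's own strand. Capitals mark matches, on either strand, to TATAAA or ATAAAA (which can overlap) as forms of the TATA box, to CCAAT as the box of that name, to CACCC or the looser CCNCNCCC (which can hold it) as Klf-type boxes, to AGATAA or TGATAA as Gata-type letters, and to TGAGTCA as the NF-E2 core. A match is a description and not a binding site. The stretches lie at chr7:103827929-103828058 (minus strand) for Hbb-bs, chr7:103813924-103814053 (minus strand) for Hbb-bt, chr11:32283542-32283671 (plus strand) for Hba-a1, chr7:103853208-103853337 (minus strand) for Hbb-y and chr11:32276470-32276599 (plus strand) for Hba-x.
Hbb-bs: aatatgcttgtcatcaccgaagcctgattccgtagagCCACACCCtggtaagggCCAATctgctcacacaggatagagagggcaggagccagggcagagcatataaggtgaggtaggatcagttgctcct
Hbb-bt: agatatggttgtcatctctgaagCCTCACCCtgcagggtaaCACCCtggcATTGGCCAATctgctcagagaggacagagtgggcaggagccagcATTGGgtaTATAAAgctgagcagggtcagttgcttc
Hba-a1: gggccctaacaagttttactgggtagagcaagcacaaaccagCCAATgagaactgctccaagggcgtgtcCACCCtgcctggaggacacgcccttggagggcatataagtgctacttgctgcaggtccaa
Hbb-y: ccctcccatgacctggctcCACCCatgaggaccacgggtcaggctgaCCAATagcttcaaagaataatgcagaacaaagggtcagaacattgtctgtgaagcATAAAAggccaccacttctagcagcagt
Hba-x: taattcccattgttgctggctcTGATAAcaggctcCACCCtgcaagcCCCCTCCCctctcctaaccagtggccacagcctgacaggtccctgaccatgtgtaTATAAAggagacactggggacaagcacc

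The letters CACCC, the core of the box bound by Klf1 in adult beta promoters, occurred in all 5 stretches and in 33.7% of the same stretch in 32851 RefSeq promoters. CCAAT occurred in 4 of the 5, all but Hba-x, and in 22.4% of all promoters. The degenerate form CCNCNCCC, which overlaps CACCC in Hbb-bs and in Hbb-bt, occurred in 3 of the 5 and in 35.8% of all. TATAAA was present in Hbb-bt and Hba-x (6.8% of all), ATAAAA in Hbb-y (8.9% of all) and TGATAA in Hba-x (3.8% of all), whereas AGATAA (4.8% of all) and TGAGTCA (2.5% of all) were in 0 of the 5 stretches. Hbb-bs and Hba-a1 hold the letters CATATAAG, which neither TATAAA nor ATAAAA matches. Their lack of a match therefore does not mean that a TATA box is absent. Over the 250 bases before the start, Hba-a1 and Hba-a2 were 97.6% identical, Hbb-bs and Hbb-bt 70.9%, Hbb-bs and Hbb-y 53.0%, and Hba-a1 and Hba-x 52.8%. No probe is annotated to Hba-a2 or Hbb-b1, and the probe sequences were not used here. Whether the Hba-a1 probe also reads Hba-a2, and whether the adult beta probes read more than 1 of Hbb-bs, Hbb-bt, Hbb-b1 and Hbb-b2, was not tested, so the gene named beside a probe is that of the annotation only.

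Of 15 erythroid marker genes with a probe, 14 lay above the background limit on at least 6 arrays, all but Epb42. So did 9 of 9 neutrophil genes, 9 of 9 macrophage genes and 16894 of all 45281 probes. The count therefore does not check the sort. The limit was set on each array from the spread of its negative values, at 6.6 to 7.7 intensity units. It was exceeded by 15988 to 18227 probes. Erythroid markers had list means of 11.44 to 11.77 (log2) in knock-in and 10.93 to 11.72 in wild type samples. Neutrophil markers were also bright, with list means of 13.70 to 14.31 in knock-in and 13.81 to 14.35 in wild type samples. B lineage markers had list means of 8.13 to 8.19 in knock-in and 8.86 to 9.36 in wild type samples, and all 9 measured members had a lower mean in the knock-in (median difference -1.12), none past the test. The same held for 9 of 9 macrophage markers (median -0.21), 7 of 7 mast cell, basophil and eosinophil markers (median -0.54) and 3 of 3 T and NK markers (median -0.20). It did not hold for neutrophil markers, of which 4 of 9 had a higher mean in the knock-in (median -0.02). Of the megakaryocyte and platelet markers 2 of 4 did (median -0.01), and of the early progenitor markers 1 of 5 (median -0.26). Of the 14 erythroid markers 12 had a higher mean in the knock-in (85.7%, median 0.28), against 42.8% of all probes. The part of these other cell types in the globin values was not tested. In bulk RNA, fewer cells of a type and less RNA per cell cannot be told apart.

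The arrays fell into 2 sets by their brightest probes, apart from genotype. On arrays 5 to 8, 11 and 12, between 10 and 15 probes other than globins exceeded 40000 intensity units, and the array maxima were 54502 to 56837. On arrays 1 to 4, 9 and 10, only 2 such probes did so on each array, and the maxima were 41615 to 47031. The brighter set held 2 knock-in samples and 1 wild type sample, and the dimmer set 1 knock-in sample and 2 wild type samples. The labels name no chip, slide or scan, and the sets were defined from the data. Since they are unevenly spread over the genotypes, the difference of each adult globin probe is given with and without the sets as a term. The fit with that term was added after the data were seen.

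The adult globin transcripts did not pass the test in either direction. Of 12 adult probes, 0 were called, against 0.0829% of the 16894 probes fitted (14 probes, all higher in the knock-in). At an unadjusted limma p under 0.05, 0 of the 12 passed, against 8.59% of all probes. The knock-in minus wild type differences of the 12 probes ran from -0.26 to 0.18 on the log2 scale, with a median of -0.02, the same as the median of all probes fitted, and their limma adjusted p-values ran from 0.853 to 0.999. For 3 probes the knock-in mean was the higher and for 9 the lower, and the samples of the genotypes overlapped for all 12 (they did not overlap for 13.6% of all probes). The 95% intervals differed in width among the 12 probes: that of Hbb-bs ILMN_2545963 ran from a 0.863-fold to a 1.14-fold level in the knock-in, and that of Hbb-bt ILMN_1216452 from 0.785-fold to 1.65-fold. They bound the signal of a probe, and for probes near the array maximum that need not bound the transcript.

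The alpha chain was read by 1 probe, Hba-a1 ILMN_1212702. Its intensity had a lowest, median and highest value of 29728, 36024 and 39490 on the 6 knock-in arrays, against 28531, 30043 and 39351 on the 6 wild type arrays. The highest values of both genotypes came from the brighter set, and the genotypes overlapped. After normalization the probe averaged 14.97 ± 0.12 in knock-in and 15.13 ± 0.12 in wild type samples (log2, SD, n = 3 each). The difference was -0.16 ± 0.11 (SE), a 0.896-fold level (0.747 to 1.07, limma adjusted p = 0.853). With the array sets as a term it was -0.11 ± 0.11. Within the blocks of arrays 1 to 4, 5 to 8 and 9 to 12, each with 1 sample per genotype, it was -0.17, -0.13 and -0.18, and with the blocks as a term it did not pass (limma adjusted p = 0.368). It was -0.13 with cyclic loess, -0.14 with 75th percentile scaling and 0.12 without normalization between arrays.

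**Figure D1:**
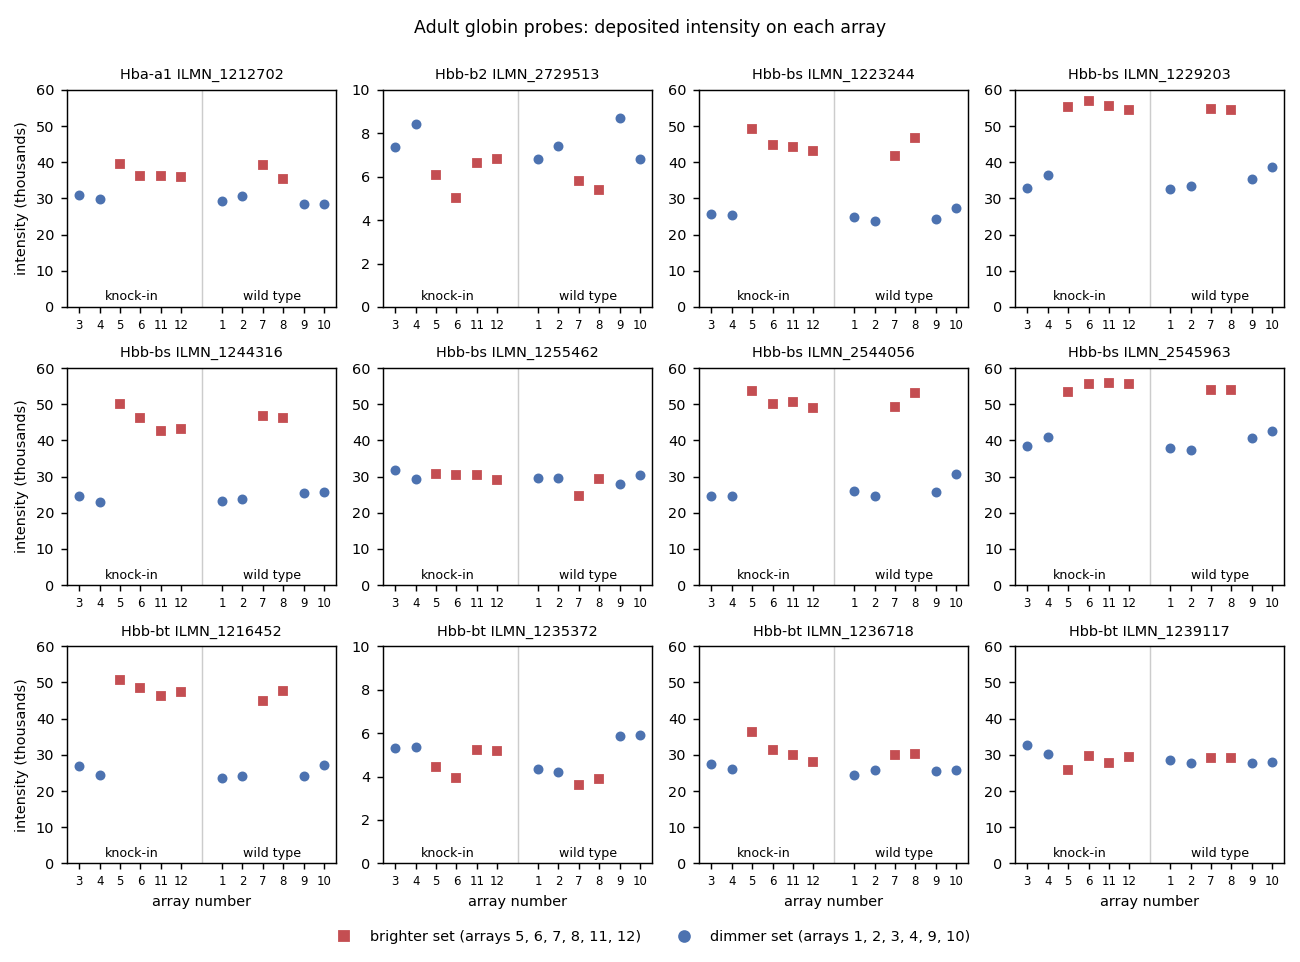
Deposited, background-subtracted intensity (linear axes from 0, in 1000 units) of the 12 adult globin probes on each array, knock-in arrays left and wild type arrays right, with squares for the brighter and circles for the dimmer set of arrays. For Hbb-bs ILMN_2544056 the squares lie at 48952 or above and the circles at 30723 or below in both genotypes, while Hbb-bs ILMN_1255462 stays between 24697 and 31837 throughout.

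The adult beta chain Hbb-bs was read by 6 probes. The brightest on average, ILMN_2545963, had 38516, 54495 and 55808 (lowest, median, highest) on knock-in arrays, against 37359, 41718 and 54009 on wild type arrays. It ranked between 1 and 6 among all probes on every array. ILMN_1229203 had 32777, 54870 and 56837 on knock-in arrays, against 32496, 37076 and 54599 on wild type arrays. In both probes the knock-in median was the higher, and the highest values came from the brighter set, which holds 4 of 6 knock-in and 2 of 6 wild type arrays. Their normalized differences were -0.01 ± 0.08 and 0.00 ± 0.11, and with the array sets as a term -0.02 ± 0.10 and -0.07 ± 0.09.

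ILMN_2544056 separated the sets most, with mean intensities of 50971 on the brighter and 26091 on the dimmer arrays, a ratio of 1.95. It had 24658, 49557 and 53691 on knock-in arrays, against 24640, 28368 and 53052 on wild type arrays. ILMN_1244316 and ILMN_1223244 had ratios of 1.88 and 1.78 between the sets. The normalized differences of these 3 probes were -0.01 ± 0.24, 0.10 ± 0.23 and 0.10 ± 0.18. With the array sets as a term they were -0.21 ± 0.11, -0.10 ± 0.10 and -0.04 ± 0.09, so the sign turned for ILMN_1244316 and ILMN_1223244. The remaining Hbb-bs probe, ILMN_1255462, differed between the sets by a ratio of 0.98: it had 29161, 30388 and 31837 on knock-in arrays, against 24697, 29496 and 30340 on wild type arrays, and a normalized difference of -0.17 ± 0.18 (-0.03 ± 0.10 with the sets as a term). Probes annotated to the same gene thus disagreed on how the sets of arrays differ.

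Hbb-bt, the adult beta gene paired with Hbb-bs, was read by 4 probes annotated to 1 transcript, and they disagreed in the same way. ILMN_1216452 had 24349, 46764 and 50661 on knock-in arrays, against 23587, 25717 and 47731 on wild type arrays, with a ratio of 1.90 between the sets. ILMN_1239117 had 25763, 29603 and 32730 on knock-in arrays, against 27695, 28253 and 29147 on wild type arrays, with a ratio of 0.98. ILMN_1236718 lay between them, with a ratio of 1.20. Their normalized differences were 0.18 ± 0.22, -0.16 ± 0.18 and -0.02 ± 0.10, and with the sets as a term 0.00 ± 0.09, -0.03 ± 0.13 and -0.02 ± 0.12.

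The remaining adult probes were well below the array maxima. Hbb-bt ILMN_1235372 had 3915, 5191 and 5381 on knock-in arrays, against 3616, 4288 and 5919 on wild type arrays. Hbb-b2 ILMN_2729513, for the minor adult beta gene of the other haplotype, had 4999, 6730 and 8435 on knock-in arrays, against 5374, 6816 and 8724 on wild type arrays. Both were dimmer, not brighter, on the brighter set (ratios of 0.84 and 0.78), and both were lowest in the samples of arrays 5 to 8. Their differences were -0.18 ± 0.29 and -0.26 ± 0.27 (limma adjusted p = 0.992 and 0.961), and with the sets as a term -0.04 ± 0.27 and -0.08 ± 0.20.

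**Figure D2:**
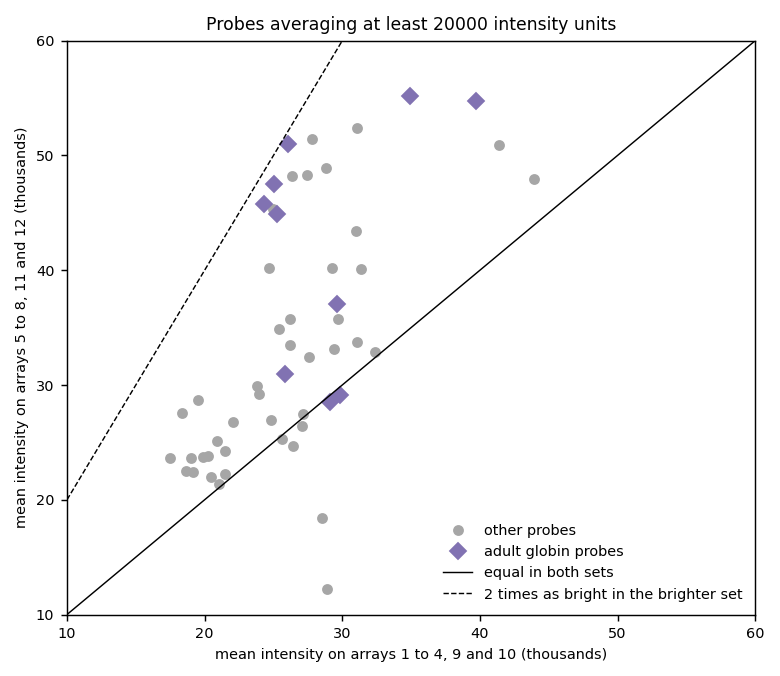
Mean intensity (axes in 1000 units) on arrays 5 to 8, 11 and 12 against that on arrays 1 to 4, 9 and 10, for the 53 probes that average at least 20000 units; diamonds are the 10 adult globin probes among them and grey points the 43 others. Globin ratios run from 0.98 to 1.95 and those of the other probes from 0.42 to 1.85.

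The split was not limited to globins. Among 10 adult globin probes averaging at least 20000 units the ratio between the sets ran from 0.98 to 1.95 with a median of 1.48, and 5 reached 1.5. Among 43 other probes as bright it ran from 0.42 to 1.85 with a median of 1.21, and 8 reached 1.5, among them probes of Gpx1, Slc4a1, S100a8 and replication-dependent histones, named after their values were seen. Among 1331 other probes averaging 1000 to 20000 units the median ratio was 1.22. The median gap between duplicate arrays was 0.062 on the log2 scale for these 10 globin probes, 0.063 for the 43 other bright probes and 0.075 for other probes averaging 500 to 5000. It was 0.102 for the 2 adult globin probes averaging under 20000, and dimmer probes were not included. On the brighter arrays the readings of Hbb-bs ILMN_1229203 lay between 54502 and 56837, at or next to the array maximum. The tables used here hold no flag for saturation, and its part in these readings was not tested.

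Over the 6 samples, the 5 bright globin probes with a ratio of at least 1.5 correlated with each other at r of 0.92 to 0.99 after normalization, and with the 2 bright probes with a ratio under 1 at -0.97 to -0.84. Without normalization between arrays the second range was -0.34 to -0.24. Quantile normalization gives each rank the same value on every array. The probes were grouped by their ratio over these same arrays, a choice that favours such correlations. The first range is given after normalization only. All these probes were read on the same arrays, so the correlations describe 6 samples and carry no test.

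**Figure D3:**
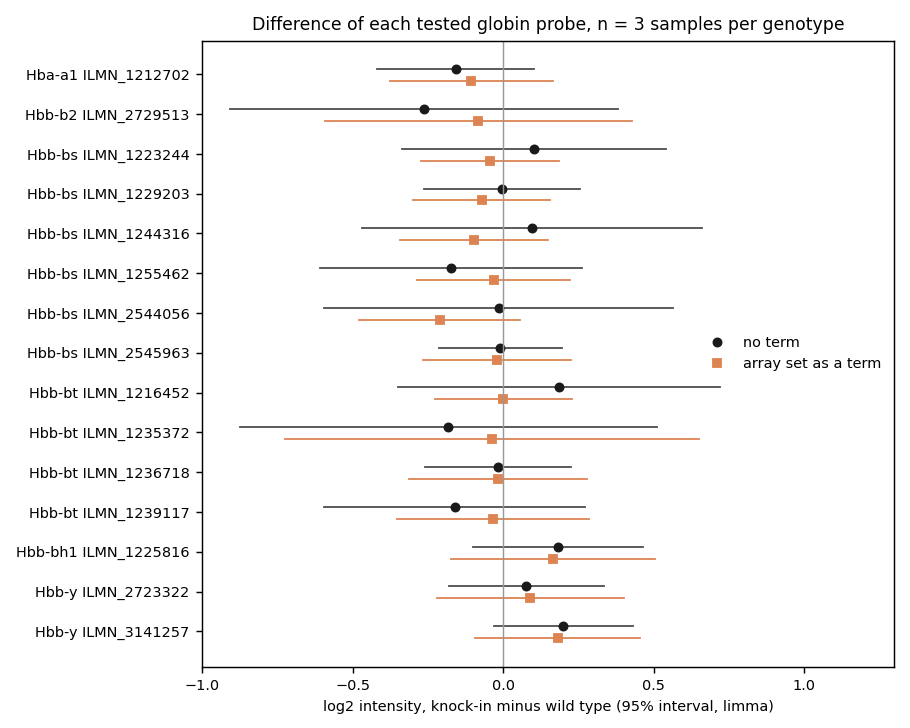
Knock-in minus wild type difference of log2 intensity for the 15 globin probes tested, with 95% limma intervals (n = 3 samples per genotype); circles are the fit without a further term and squares the fit with the array sets as a term. Every interval in both fits includes 0, and for most adult probes the interval is narrower with the term.

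With the array sets as a term the adult differences ran from -0.21 to 0.00 with a median of -0.04, and the SE was smaller for 10 of 12 probes. Still 0 of the 12 were called (lowest limma adjusted p = 0.755, against 0.0178% of all probes called in that fit), and 0 were called with blocks of 4 adjacent arrays as a term (0.438% of all probes). Within the brighter set, knock-in samples differed from the wild type sample by -0.18 to 0.10 over the 12 probes, and within the dimmer set by -0.33 to 0.13. The widest adult difference within a set, -0.33, belonged to Hbb-bs ILMN_2544056, which differed by -0.09 within the other set. Without normalization between arrays the 12 differences ran from -0.02 to 0.36, and within the sets from -0.05 to 0.31 and from -0.11 to 0.17, while the median of all probes shifted by 0.08. The 12 adult probes held 4.31 ± 0.83% of the summed signal above background in knock-in and 4.49 ± 0.63% in wild type samples (SD, n = 3 each). That share was lowest in the samples of arrays 1 to 4 of both genotypes, and the range was 3.56% to 5.28% on knock-in and 3.74% to 4.91% on wild type arrays.

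The balance of alpha to beta signal was compared within samples, without a test because it is a score over members. The Hba-a1 probe minus the mean of the adult beta probes was 0.56, 0.38 and 0.22 (log2) in the knock-in samples of arrays 3 and 4, 5 and 6, and 11 and 12, against 0.69, 0.39 and 0.43 in the wild type samples of arrays 1 and 2, 7 and 8, and 9 and 10. The groups overlapped, with means of 0.39 ± 0.17 in knock-in and 0.50 ± 0.16 in wild type samples. As a difference between probes, this value compares samples and does not give the ratio of alpha to beta transcripts.

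The embryonic globins lay at or near background in both genotypes, and none passed the test. Of the 5 probes, 3 were above the limit on at least 6 of 12 arrays and were tested. Of these 3, 0 were called, against 0.0829% of all probes. Hba-x, the embryonic alpha-type chain, was above the limit on 2 of 6 knock-in arrays (11.6 and 9.8 units on arrays 5 and 6) and on 0 of 6 wild type arrays, where its highest value was 6.0 units. It was not tested, and since it was not well above background on any wild type array no fold is given. The Hbb-bh1 probe ILMN_2550129, also not tested, was above the limit on 2 of 6 arrays of each genotype.

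Hbb-bh1 ILMN_1225816 had 4.4, 13.2 and 19.0 units (lowest, median, highest) on knock-in arrays, against 0.3, 3.0 and 12.3 on wild type arrays, and was above the limit on 5 knock-in and 2 wild type arrays. The genotypes overlapped, and the difference was 0.18 ± 0.12 (limma adjusted p = 0.826). Hbb-y ILMN_2723322 had 9.8, 14.4 and 23.5 units on knock-in arrays, against 5.9, 8.8 and 14.5 on wild type arrays. It was above the limit on 6 knock-in and 4 wild type arrays, and differed by 0.08 ± 0.11 (limma adjusted p = 0.988). Because 50 units were added before the log, differences of dim probes are compressed, those from noise included. From the authors' processed values, with no such offset and values under 1 set to 1, the differences of these probes were 1.97 and 0.61, and neither passed (limma adjusted p = 0.729 and 0.955). With 75th percentile scaling they were -0.08 and -0.12. The value of 1.97 rests on wild type readings that mostly lay below the limit, down to 0.3 units, and is not read as a fold.

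The second Hbb-y probe, ILMN_3141257, was the only member whose genotypes did not overlap. It had 13.6, 14.1, 33.3, 26.4, 15.4 and 21.2 units on knock-in arrays 3, 4, 5, 6, 11 and 12, against 6.5, 12.6, 11.4, 4.0, 12.1 and 4.2 units on wild type arrays 1, 2, 7, 8, 9 and 10. All 6 knock-in arrays were above the limit, against 3 of 6 wild type arrays. The normalized values were 6.34 ± 0.12 in knock-in and 6.14 ± 0.06 in wild type samples, a difference of 0.20 ± 0.10 that did not pass (limma adjusted p = 0.665). Its samples did not overlap, as was the case for 7.57% of all probes with the knock-in higher and for 13.6% in either direction. The probe passed the filter with more knock-in than wild type arrays above the limit, which favours higher knock-in values. From the authors' processed values the difference was 1.23 and did not pass either (limma adjusted p = 0.444). In each wild type pair of arrays, 1 reading of this probe lay above the limit and the other below it. The normalized difference was 0.32 within the brighter and 0.04 within the dimmer set of arrays.

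**Figure D4:**
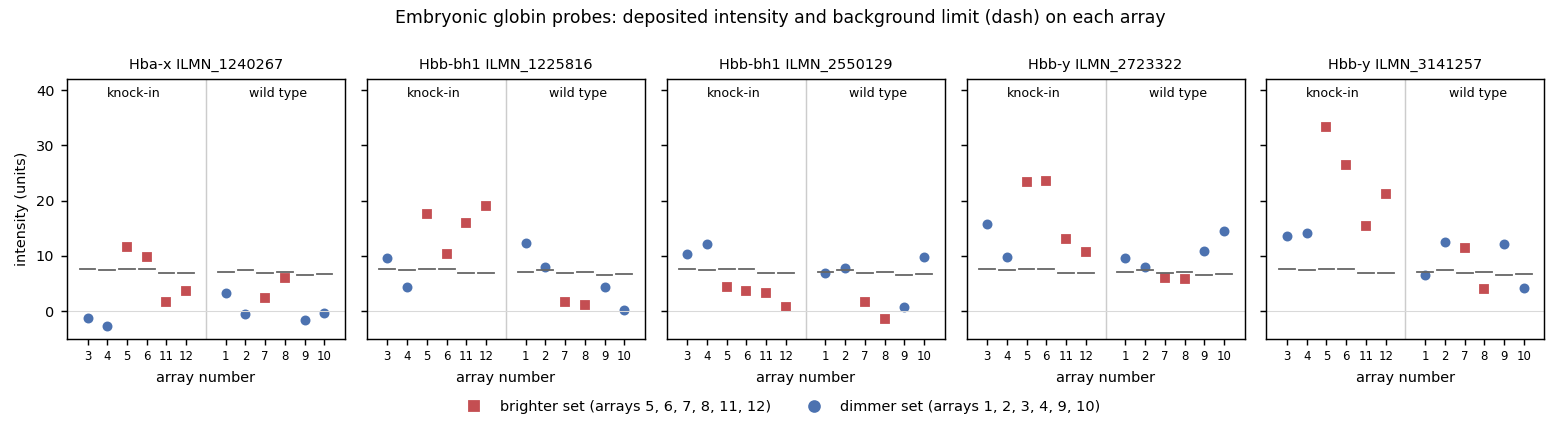
Deposited, background-subtracted intensity (units, linear axis) of the 5 embryonic globin probes on each array, knock-in arrays left and wild type arrays right; grey dashes give the background limit of each array. For Hbb-y ILMN_3141257 the 6 knock-in arrays lie between 13.6 and 33.3 units, above the wild type arrays.

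Adult and embryonic probes were set against each other within samples, on the log2 scale with 50 units added. The mean of the 3 tested embryonic probes minus the mean of the 12 adult probes was -8.43, -8.28 and -8.32 (log2) in the knock-in samples of arrays 3 and 4, 5 and 6, and 11 and 12. It was -8.50, -8.65 and -8.48 in the wild type samples of arrays 1 and 2, 7 and 8, and 9 and 10. The means were -8.34 ± 0.08 and -8.54 ± 0.09 in knock-in and wild type, and the groups did not overlap. Most of the gap of 0.20 came from the embryonic side, whose means were 6.27 ± 0.10 and 6.12 ± 0.07, against 14.62 ± 0.06 and 14.67 ± 0.03 on the adult side. The 3 probes passed the filter with more knock-in than wild type arrays above the limit, a choice that favours higher knock-in values, so this gap supports nothing about them.

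The theta globins Hbq1a and Hbq1b lie in the alpha cluster beside the adult alpha genes and are outside the symbol rule. The Hbq1a probe had 1188, 1316 and 1497 units (lowest, median, highest) on knock-in arrays, against 269, 409 and 651 on wild type arrays. These readings did not overlap between the genotypes, but they come from only 3 samples per genotype. The share of all probes whose single-array readings separate in this way was not counted. After normalization it was 10.26, 9.99 and 10.64 in the knock-in samples of arrays 3 and 4, 5 and 6, and 11 and 12, against 8.49, 8.73 and 10.00 in the wild type samples of arrays 1 and 2, 7 and 8, and 9 and 10. The samples then overlapped narrowly, at the wild type sample of arrays 9 and 10, whose array means of 134.5 and 144.4 units were the lowest of all. The difference was 1.22 ± 0.41, a 2.34-fold level that did not pass over all probes (limma adjusted p = 0.436), and it was 1.58 within the brighter and 1.01 within the dimmer set of arrays. It was 1.52 without normalization between arrays (limma adjusted p = 0.215). It passed only where the 12 arrays entered singly, as 12 samples (limma adjusted p = 0.0178) or with each pair as a random block (0.0211). Leaving out each sample in turn gave 0.93 to 1.69.

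Hbq1b was dimmer, with 61.1, 102 and 125 units on knock-in arrays, against 40.4, 63.5 and 98.6 on wild type arrays, and differed by 0.22 ± 0.30 (limma adjusted p = 0.988). The upstream stretches of Hbq1a and Hbq1b are 95.6% identical; whether either probe reads both transcripts was not tested. In the same samples Tfrc, which encodes the sorted surface protein CD71, was 12.28 ± 0.37 in knock-in and 11.87 ± 0.86 in wild type samples, lowest on wild type arrays 9 and 10, and the part of the mix of sorted cells in the Hbq1a values was not tested.

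**Figure D5:**
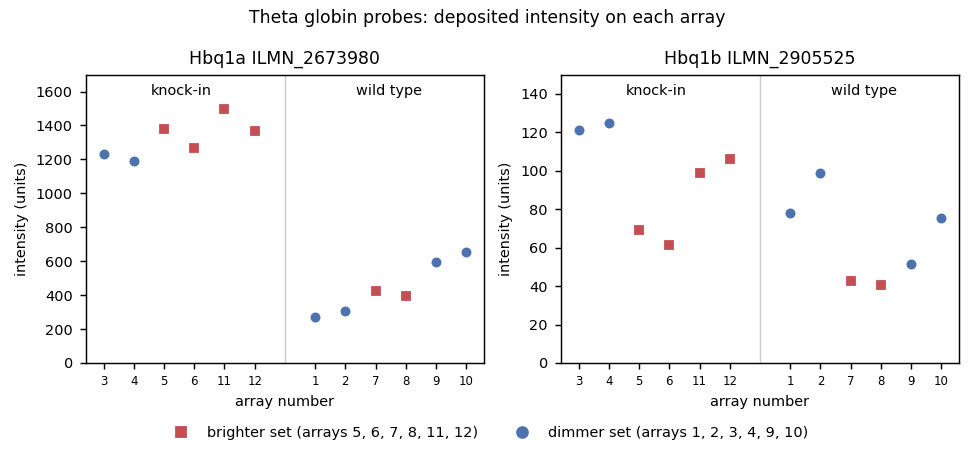
Deposited, background-subtracted intensity (units, linear axes from 0) of the Hbq1a and Hbq1b probes on each array, knock-in arrays left and wild type arrays right. Hbq1a lies between 1188 and 1497 units on knock-in arrays and between 269 and 651 on wild type arrays, and Hbq1b overlaps.

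Regulators of the globin clusters were measured on the same arrays, each gene by its brightest probe. A list of 22 genes tied to adult globin transcription held activators (Klf1, Gata1, Tal1), repressors that act at the same sites (Bach1, Klf3, Cbfa2t3) and Nprl3, whose introns hold alpha-globin enhancers. Of these, 19 were measured and 0 passed in either direction (0.0829% of all probes passed). The knock-in mean was the higher for 15 (78.9%, against 42.8% of all probes), with a median difference of 0.26, against -0.02 for all probes. The erythroid markers, a list that shares Klf1 and Gata1 with this one, stood at 85.7% and 0.28, so the values are not particular to this list. The smallest p-values belonged to Mafg, a small Maf partner of NF-E2, at 0.61 ± 0.10, Lyl1, a relative of Tal1, at 0.60 ± 0.11, and Cbfa2t3, a corepressor in the Gata1 and Tal1 complex, at 0.90 ± 0.24 (limma adjusted p = 0.127, 0.146 and 0.315). Klf1, the activator of adult beta-globin, was 12.53 ± 0.25 in knock-in and 12.03 ± 0.64 in wild type samples, and Gata1 was 8.56 ± 0.30 and 8.32 ± 0.54.

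Of 22 genes tied to the silencing of embryonic or fetal globins, not all of them silencers themselves, 16 were measured and 0 passed (0.0829% of all probes passed). The knock-in mean was the higher for 6 (37.5%, against 42.8% of all probes), and the median difference was -0.10. Mbd2, which reads methylated DNA, differed by 0.36 ± 0.13, Bcl11a, a repressor of embryonic beta-type genes, by -0.37 ± 0.15, and Ehmt2, a histone H3 lysine methyltransferase, by -0.26 ± 0.14 (limma adjusted p = 0.498, 0.552 and 0.742). Sox6 and Myb, which act with or above Bcl11a, differed by -0.16 ± 0.39 and -0.07 ± 0.18.

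Among 20 genes of hemoglobin protein and heme balance, 18 were measured and 0 passed (0.0829% of all probes passed). The knock-in mean was the higher for 8 (44.4%, against 42.8% of all probes), and the median difference was -0.10. Ppp1r15b, the constitutive eIF2 alpha phosphatase subunit, differed by 0.90 ± 0.16, Bnip3l, which targets mitochondria for removal in maturing red cells, by -0.35 ± 0.12, and Prdx2, a peroxide-removing protein abundant in red cells, by 0.27 ± 0.13 (limma adjusted p = 0.142, 0.45 and 0.656). Eif2ak1, the heme-regulated kinase that holds back globin translation when heme is short, differed by 0.35 ± 0.26, and Alas2, the first enzyme of erythroid heme synthesis, by -0.23 ± 0.12. Mb and Ngb, encoding myoglobin and neuroglobin, were below the limit, and Cygb, encoding cytoglobin, differed by -0.02 ± 0.10.

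As a description, the genes whose log2 pattern over the 6 samples was most like that of Hba-a1 were Hibadh, Denr and Rps24 (Pearson r of 0.965, 0.961 and 0.957). For Hbb-bs ILMN_2545963 they were Rnf11, Rpp30 and Stc2 (r of 0.991, 0.988 and 0.969), and for Hbb-y ILMN_3141257 they were Rcan3, Snx21 and Car15 (r of 0.979, 0.970 and 0.970). They are the highest of 9382 genes searched over only 6 samples, and the Hbb-bs values spanned little after normalization.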

How the data were processed

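Intensity values were used as the authors deposited them in the table titled non-normalized; 33.05% to 37.02% of values per array were negative, so background had been subtracted. The submitters' processing notes name GenomeStudio, and neither its version nor a genome build is given in the sources used here. Intensities were corrected with limma's normexp (offset 50), quantile-normalized and taken to log2, and adjacent arrays were averaged. The SD of log2 differences was 0.0945 to 0.143 between adjacent arrays and 0.298 to 0.477 between the remaining pairs within a genotype. Fitted were 16894 of 45281 probes, those above the limit (90th percentile of mirrored negative values) on at least 6 arrays, with limma 3.58.1 in R 4.3.3, Benjamini-Hochberg adjustment over all of them and a threshold of 0.05. The fit was by probe because the members are probes. Promoter letters were searched with a script, and figures drawn with matplotlib 3.10.9. The fit was also run on simulated independent values that held no array sets and no ceiling of brightness, so that run does not bear on either. Named are all members, the 3 genes with the smallest p per regulator list, the 3 most like the brightest probe of each of the adult alpha, adult beta and embryonic globins, and Tfrc. Klf1, Gata1, Sox6, Myb, Eif2ak1 and Alas2 were named after their values were seen. Members and lists were chosen with earlier results of these data known. No probe carried the symbol Ahsp in the annotation used here, and that gene is not analysed here. The number of arrays limits the precision.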

Additional observations from a re-analysis of the deposited data

How the results depend on the processing

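No Hba- or Hbb- probe was called under any other setting run (lowest limma adjusted p = 0.112, with the 12 arrays as 12 samples); the Hbq1a probe was called in 2, as reported. Signs of uncalled differences turned under several settings. With 75th percentile scaling, which also scales the added 50 units, Hbb-bh1 ILMN_1225816 differed by -0.08, the Hbb-y probes ILMN_2723322 and ILMN_3141257 by -0.12 and -0.02, and Hbb-bs ILMN_2544056 by 0.00; the last was 0.02 with cyclic loess. Without normalization between arrays, Hba-a1 differed by 0.12, Hbb-bs probes ILMN_2544056, ILMN_1229203, ILMN_1255462 and ILMN_2545963 by 0.27, 0.23, 0.09 and 0.17, and Hbb-bt probes ILMN_1235372, ILMN_1236718 and ILMN_1239117 by 0.10, 0.15 and 0.04. With the array sets as a term, Hbb-bs ILMN_1244316 and ILMN_1223244 differed by -0.10 and -0.04. Leaving out 1 sample gave ranges on both sides of 0 for Hbb-bs ILMN_2544056 (-0.14 to 0.22), ILMN_1244316 (-0.04 to 0.30), ILMN_1229203 (-0.04 to 0.07) and ILMN_2545963 (-0.05 to 0.02), for Hbb-bt ILMN_1235372 (-0.37 to 0.07) and ILMN_1236718 (-0.07 to 0.03), and for Hbq1b (-0.03 to 0.48). The cause was not tested. The count of all probes called, 14 as reported, was 42 (41 higher) both from the authors' processed table and when background correction was omitted, 8 with 75th percentile scaling, 4 without normalization between arrays and 8 with 1 probe per gene symbol. It was 25 with trend and robust eBayes, 74 with blocks of 4 adjacent arrays as a term, 456 with pairs as a random block, 1522 with the arrays as 12 samples (980 higher) and 3 with the array sets as a term, an alternative added after the data were seen. Leaving out each sample in turn gave 3 to 6: 3 without arrays 3 and 4 or 1 and 2, 6 without 5 and 6, and 4 without 11 and 12, 7 and 8, or 9 and 10. The genotypes share no replicate numbers in the labels, so the blocks of 4 adjacent arrays, each with 1 sample per genotype, are the only paired fit that was run. The arrays carry no saturation flag, and 3 samples per genotype limit the precision.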
